A study of Mus musculus with 19 samples.

Results

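The BCL2 family genes described here are *Bcl2*, *Bcl2l1*, *Mcl1*, *Bcl2a1a*, *Bcl2a1b*, *Bcl2a1d*, *Bax*, *Bak1*, *Bid* and *Bcl2l11*. They were chosen by symbol, and all 10 were found among the 27299 genes of the deposited table. Their RNA was measured by bulk RNA-seq in retinal microglia, the resident macrophages of the retina, from 6 samples on day 3 after laser-induced choroidal neovascularization (CNV d3) and from 6 samples of unlasered control mice. The labels give C57BL/6J mice of 8 weeks and cells sorted as CD45+CD11b+CX3CR1+Ly6C-Ly6G- for both groups, whereas the methods of the study name *Cx3cr1*GFP/+ mice, which carry GFP in place of 1 copy of the fractalkine receptor gene, and cells low for CD45. In the lasered eyes 6 burns were set per retina. The labels do not say whether the samples of a group came from separate mice, so p-values measure the spread between these samples only.

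Proteins of the BCL2 family decide at the outer mitochondrial membrane whether a cell enters the intrinsic pathway of apoptosis. The pro-survival proteins BCL2, BCL-XL (encoded by *Bcl2l1*), MCL1 and A1 (encoded by the *Bcl2a1* copies) hold the pore-forming proteins BAX and BAK in check, and the BH3-only proteins such as BID and BIM (encoded by *Bcl2l11*) neutralize the guardians or activate the pore formers. Once BAX or BAK opens the membrane, cytochrome c is released, and the apoptosome and its caspases are assembled. A1 is a hematopoietic member known as an NF-kappaB target in myeloid cells, and MCL1 is a short-lived protein that many myeloid cells need for survival.

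Values are normalized counts, that is reads on a gene divided by the size factor of the sample. Between 10963178 and 22335233 reads lay on genes in the control samples and between 23532260 and 29523018 in CNV d3, so every CNV d3 sample was deeper than every control. Tests were made with limma on log2(normalized counts + 1), fitted to the whole table, and a gene was called at a Benjamini-Hochberg adjusted p under 0.05. All 12 microglia markers of a fixed list were detected in both groups, and 8 of them were called lower in CNV d3, with summed levels of 1505380 to 1666712 in control and 847857 to 1257202 in CNV d3. All 10 genes of dividing cells rose, from summed levels of 1179 to 2863 in control to 11516 to 24827 in CNV d3. Among the monocyte markers 4 of 8 rose, with sums of 220.7 to 1022 in control and 1219 to 4438 in CNV d3, and *Ly6c2* and *Chil3* were at 0 in all controls. Of other cell types, the neutrophil markers *Mmp9* and *Lcn2* rose (2 of 8). Both were low, with means of 14.7 and 9.74 normalized counts in CNV d3 and a lowest value of 0 there. They were at 0 in all controls, as were 6 of the 8 neutrophil markers in total. *Clu* and *Dkk3* of Mueller glia and *Kdr* of endothelium rose as well, while *Slc1a3* of Mueller glia and *Pecam1* of endothelium fell. Photoreceptor markers summed to 699 to 6615 in control and 564 to 12347 in CNV d3, and T, NK and B cell markers to 0 to 30.5 and 4.33 to 30.4. Reads of the Y genes *Ddx3y*, *Eif2s3y*, *Kdm5d* and *Uty* summed to between 3529 and 4284 in CNV d3 replicates 4, 5 and 6 and to at most 0.895 in every other sample. *Xist*, transcribed from the inactive X chromosome of females, stood at most at 0.866 in those 3 samples, at 3116 to 5245 in the other CNV d3 samples and at 6522 to 9795 in control. For this reason, each member was also compared between CNV d3 replicates 1 to 3, or replicates 4 to 6, and the same controls. These splits, chosen after the data were seen, share their controls and leave 3 CNV d3 samples, and Y gene reads cannot be told apart from what else distinguishes those samples. The part of dividing cells and of these other cell types in the results was not tested.

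Of the 10 genes, 2 rose in CNV d3 (*Bax* and *Bcl2a1d*), 2 fell (*Bcl2l1* and *Bid*) and 6 were not called. Over all genes 8.29% were called higher and 4.57% lower. Among the 9713 genes with a mean of at least 100 normalized counts, the level of all members but *Bak1*, the shares were 15.3% and 10.8%. The median log2 fold change (log2FC, CNV d3 minus control) of the 10 genes was 0.026, beside 0.146 over all genes tested and 0.064 over those 9713 genes. No member passed the DEG threshold of the study, an absolute log2FC above 1.5 with an adjusted p under 0.05, which 3.91% of all genes passed as higher, 1.07% as lower and 4.99% in either direction; none passed it by edgeR, by DESeq2 or, with the p left unadjusted, by limma. In 3 of the 10 genes the groups did not overlap (*Bcl2l1* lower, *Bax* and *Bcl2a1d* higher), beside 4.64% of all genes with CNV d3 above control, 2.83% below and 7.47% in either direction. Those shares include genes with few reads, and the share among genes at the level of the members was not computed. In bulk RNA, fewer cells with a transcript and less of it per cell cannot be told apart.

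**Figure D1:**
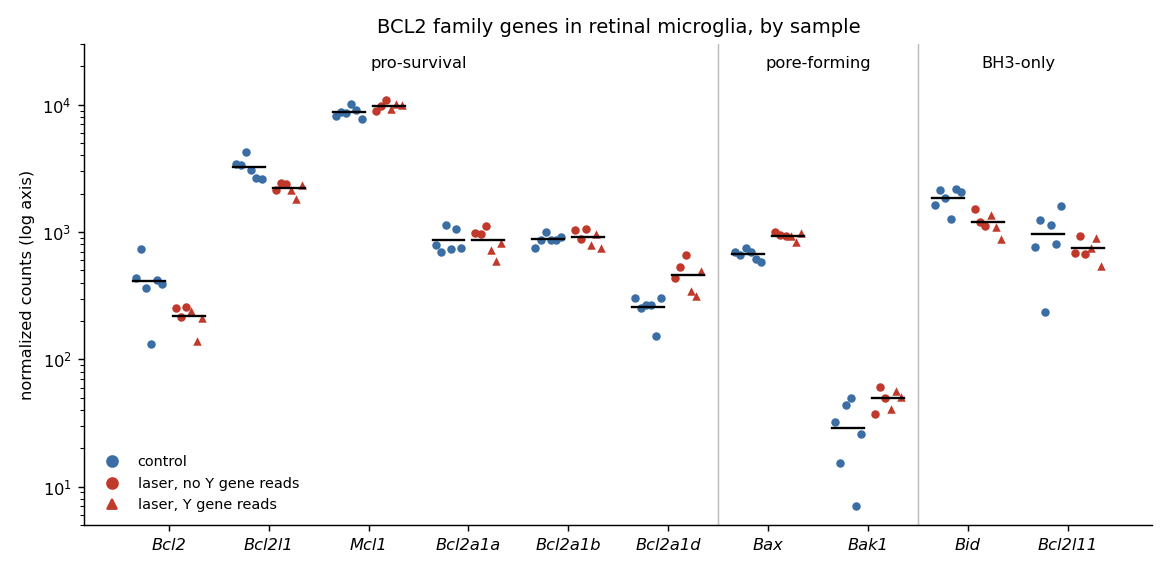
Normalized counts (log axis) of the 10 BCL2 family genes in each of 6 control (blue) and 6 CNV d3 samples (red; triangles are the 3 samples with Y gene reads), with black lines at the group means. The red points of *Bax* (835 to 1000) and *Bcl2a1d* (316 to 654) all lie above the blue points, and those of *Bcl2l1* (1815 to 2412) all lie below them.

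Among the pro-survival genes, *Bcl2l1* fell. It lies on the minus strand of chr2:152780668-152831728 (GRCm38), with no exon shared with another annotated gene. Its normalized counts were 3443, 3344, 4271, 3067, 2654 and 2608 in control replicates 1 to 6, and 2125, 2412, 2370, 2132, 1815 and 2338 in CNV d3 replicates 1 to 6. The highest CNV d3 value lay below the lowest control value, and control replicate 3 was the highest of all samples. Mean levels of 3231 ± 614 and 2199 ± 224 (SD, n = 6 each) gave a ratio of 0.68 (log2FC = -0.54, SE 0.12, 95% confidence interval -0.81 to -0.27, adjusted p = 0.00948 by limma). CNV d3 replicates 1 to 3 gave a log2FC of -0.47 (adjusted p = 0.137) and replicates 4 to 6 one of -0.61 (adjusted p = 0.0789), so the call was lost in each set of 3 with the direction kept.

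*Mcl1* (chr3:95658788-95663176, plus strand) had the most normalized counts of the 10 genes, and ranked 329 of all genes by mean in control and 281 in CNV d3. Control samples ranged from 7767 to 10114 around a median of 8709, and CNV d3 samples from 8858 to 10925 around a median of 9883. The groups overlapped, and the spread was small, with a coefficient of variation of 9.25% in control and 7.5% in CNV d3. The difference was a log2FC of 0.16 (SE 0.079, 95% confidence interval -0.0038 to 0.33, adjusted p = 0.209), so a fall larger than the lower bound lies outside the interval.

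*Bcl2*, the founding member of the family, lies on the minus strand of chr1:106538178-106714274. It was measured at 436, 741, 361, 132, 419 and 391 normalized counts in control replicates 1 to 6 and at 254, 214, 257, 241, 140 and 212 in CNV d3. All CNV d3 values lay below 5 of the 6 controls, and control replicate 4, the lowest of all samples, was the exception. The means of 413 ± 195 and 220 ± 43.4 (SD, n = 6 each) differed by a log2FC of -0.77 (SE 0.33, 95% confidence interval -1.47 to -0.074, adjusted p = 0.149), which was not called. Without control replicate 4 it was called (log2FC = -1.07, adjusted p = 0.0089), as it was by DESeq2 on the recovered reads of all samples (log2FC = -0.91, adjusted p = 0.0211). The coefficient of variation was 47.2% in control and 19.8% in CNV d3.

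The A1 protein is encoded in the mouse by near-identical gene copies on chromosome 9. Because sequencing reads of 50 bases can tell the copies apart only where they differ, the first 90 coding bases are shown for the 3 members, read from the Gencode M21 transcripts on GRCm38, with capitals at the 6 positions where the copies differ. *Bcl2a1a* (gene at chr9:88956900-88962419) is shown at chr9:88957051-88957140 on the plus strand, *Bcl2a1b* (chr9:89199209-89207827) at chr9:89199360-89199449 on the plus strand and *Bcl2a1d* (chr9:88723285-88731914) at chr9:88731630-88731719 on the minus strand.
Bcl2a1a: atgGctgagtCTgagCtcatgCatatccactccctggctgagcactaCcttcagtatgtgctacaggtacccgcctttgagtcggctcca
Bcl2a1b: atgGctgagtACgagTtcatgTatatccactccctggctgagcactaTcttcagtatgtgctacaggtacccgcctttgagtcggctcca
Bcl2a1d: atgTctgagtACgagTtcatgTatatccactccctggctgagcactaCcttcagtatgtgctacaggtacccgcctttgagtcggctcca

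Over the 516 coding bases, the copies differed at 12 positions, and the longest stretch without a difference had 217 bases. *Bcl2a1a* and *Bcl2a1b* were 97.9% identical, *Bcl2a1a* and *Bcl2a1d* 98.6%, and *Bcl2a1b* and *Bcl2a1d* 98.8%. Of all 50-base windows in their annotated transcripts, 69% in *Bcl2a1a*, 79.2% in *Bcl2a1b* and 79.5% in *Bcl2a1d* also occurred in another gene, which left 239, 160 and 167 windows where a read fits 1 gene only. By default, the counting tool drops a read that maps to several places or falls on exons of several genes, so the values of each copy rest on these windows. In addition, 49.1% of the exon bases of *Bcl2a1b* are also exon of the annotated gene *Gm29094*, which has no row in the table.

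Of the copies, *Bcl2a1d* rose while the others were not called. Its normalized counts were 302, 253, 267, 265, 153 and 306 in control replicates 1 to 6 and 437, 534, 654, 345, 316 and 493 in CNV d3. The lowest CNV d3 sample lay just above the highest control, and the CNV d3 samples with the 2 lowest values, replicates 4 and 5, carried Y gene reads. Means of 258 ± 55.6 and 463 ± 125 (SD, n = 6 each) gave a ratio of 1.8 (log2FC = 0.84, SE 0.23, 95% confidence interval 0.35 to 1.32, adjusted p = 0.0235 by limma). The adjusted p crossed the threshold without CNV d3 replicate 2 (0.0562), replicate 3 (0.052) or replicate 6 (0.0548), with log2FC of 0.79, 0.73 and 0.81. Replicates 1 to 3 alone gave a log2FC of 1.09 (adjusted p = 0.0385) and replicates 4 to 6 one of 0.58 (adjusted p = 0.244).

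*Bcl2a1a* was measured between 692 and 1136 normalized counts in control (median 770.1) and between 591 and 1105 in CNV d3 (median 888), and *Bcl2a1b* between 748 and 999 in control (median 869) and between 755 and 1048 in CNV d3 (median 918). Both overlapped widely between groups. Their log2FC were 0.0020 (95% confidence interval -0.38 to 0.38, adjusted p = 0.995) and 0.05 (95% confidence interval -0.22 to 0.32, adjusted p = 0.802), so a change as large as the estimate for *Bcl2a1d* lies outside both intervals. The estimates from the 2 sets of CNV d3 samples had opposite signs. *Bcl2a1a* had a log2FC of 0.26 in replicates 1 to 3 (961 to 1105 normalized counts) and of -0.26 in replicates 4 to 6 (591 to 815). Neither was called (adjusted p = 0.445 and 0.502), and every CNV d3 sample but replicate 5 lay within the range of the controls.

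The sum of the 3 copies rests, like each copy, on reads that fit 1 gene only, and the copies enter it with unequal numbers of windows. It ranged from 1816 to 2402 in control and from 1861 to 2807 in CNV d3. The groups overlapped, with means of 1994 ± 221 and 2239 ± 376 (SD, n = 6 each), and the difference on the log2 scale was 0.16 (SE 0.12, two-sided exact permutation test over 924 labellings, p = 0.208). This depended on which CNV d3 samples were used. Replicates 1 to 3, at 2373 to 2807, gave 0.36 (exact permutation p = 0.0238 over 84 labellings). Their lowest value, in replicate 2, lay below control replicate 3 at 2402. Replicates 4 to 6, at 1861 to 2063, gave -0.043 (exact permutation p = 0.738).

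*Bcl2a1d* made up 16.3, 13.9, 11.1, 14.2, 7.35 and 15.6% of the sum in control replicates 1 to 6 and 17.7, 22.5, 23.3, 18.6, 16.9 and 23.9% in CNV d3. Every CNV d3 sample lay above every control, in the samples with Y gene reads too, and control replicate 5 was the lowest. The log2 ratio of *Bcl2a1d* to the other 2 copies together differed by 0.81 (SE 0.23, two-sided exact permutation test, p = 0.00216, the smallest that 6 against 6 samples allow). That test was chosen after the values of the copies were seen.

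**Figure D2:**
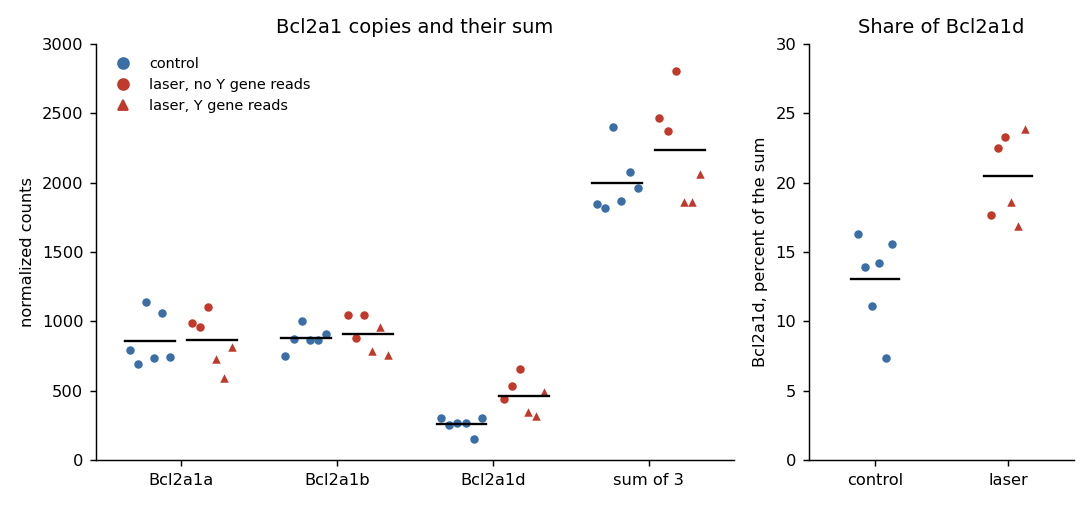
Normalized counts of the 3 *Bcl2a1* copies and of their sum (left) and *Bcl2a1d* as a percent of the sum (right), by sample, with lines at the group means; control is blue, CNV d3 is red, and triangles are the samples with Y gene reads. The sums overlap (1816 to 2402 against 1861 to 2807), while the shares of *Bcl2a1d* do not (7.35 to 16.3% against 16.9 to 23.9%).

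The sequence before the starts of *Bcl2a1d*, which rose, and *Bcl2a1a*, which was not called, was compared. RefSeq promoters of 300 bases on GRCm38.p6 (250 before and 50 after the start) were used, and were found for all 10 members. Over 294 aligned bases the promoters of *Bcl2a1a* and *Bcl2a1d* were 98% identical, with 6 mismatches and a gap of 6 bases. The stretch from 190 to 71 bases before the start holds the gap and is shown for *Bcl2a1a* (chr9:88956730-88956849, plus strand) and *Bcl2a1d* (chr9:88731921-88732040, minus strand), with capitals at GAGGAAGT, a motif of the type bound by the myeloid factor PU.1.
Bcl2a1a: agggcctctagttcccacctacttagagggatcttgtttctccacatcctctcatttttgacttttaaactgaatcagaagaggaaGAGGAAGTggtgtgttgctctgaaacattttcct
Bcl2a1d: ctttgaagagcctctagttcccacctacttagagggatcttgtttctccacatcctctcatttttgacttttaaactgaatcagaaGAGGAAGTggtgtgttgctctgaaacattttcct

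GAGGAAGT, searched on both strands, was present in the promoters of all 3 copies and of *Bak1*, and in 3.2% of the 32851 promoters in the table. The NF-kappaB site, searched by its consensus on both strands, was found in 1 of 3 promoters of *Bcl2l1* and in no other member, and in 4.51% of all promoters. A match to these letters is not a measured binding site. The promoter of *Bcl2a1b*, which was not called either, was 98.8% identical to that of *Bcl2a1d* over 250 aligned bases, with 3 mismatches and a gap of 6 bases. Whether any of these sequences bears on the levels of the copies was not tested.

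Of the pore-forming genes, *Bax* rose. It lies on the minus strand of chr7:45461697-45466898, and 12.2% of its exon bases are also exon of *Gm45808*, a gene without a row in the table. Control replicates 1 to 6 had 702, 654, 748, 696, 615 and 584 normalized counts, and CNV d3 replicates had 1000, 955, 924, 923, 835 and 990. The groups were apart, and within each the samples were close, with a coefficient of variation of 9.09% in control and 6.4% in CNV d3. The means of 667 ± 60.6 and 938 ± 60.0 (SD, n = 6 each) gave a ratio of 1.41 (log2FC = 0.49, SE 0.11, 95% confidence interval 0.25 to 0.74, adjusted p = 0.00916 by limma). *Bax* was the only member called in both sets of CNV d3 samples, with a log2FC of 0.53 in replicates 1 to 3 (adjusted p = 0.0122) and of 0.46 in replicates 4 to 6 (adjusted p = 0.0318).

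*Bak1*, which encodes the second pore former, was the lowest of the 10 genes. It had 32, 15, 44, 50, 7 and 26 normalized counts in control replicates 1 to 6 and 37, 61, 49, 41, 57 and 51 in CNV d3. The highest values were in CNV d3 but the groups overlapped, and the estimate was wide (log2FC = 0.97, SE 0.53, 95% confidence interval -0.17 to 2.11, adjusted p = 0.292). Without control replicate 5, at 7 normalized counts the lowest of all samples, the log2FC was 0.64 (adjusted p = 0.344), and by edgeR and DESeq2 it was 0.78 and 0.76 (adjusted p = 0.406 and 0.194). On the minus strand of chr17:27019810-27029009, 25.5% of the exon bases of *Bak1* overlap *Ggnbp1*, itself at 3.98 and 5.04 mean normalized counts in control and CNV d3.

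Of the BH3-only genes, *Bid*, whose protein links death receptors to mitochondria after cleavage by caspase-8, fell. Control replicates 1 to 6 had 1639, 2147, 1838, 1264, 2158 and 2053 normalized counts, and CNV d3 replicates had 1505, 1208, 1118, 1351, 1091 and 880. Only control replicate 4 lay within the range of CNV d3. The means of 1850 ± 350 and 1192 ± 218 (SD, n = 6 each) gave a ratio of 0.644 (log2FC = -0.63, SE 0.16, 95% confidence interval -0.97 to -0.29, adjusted p = 0.0155 by limma). In replicates 1 to 3 the log2FC was -0.52 (adjusted p = 0.169) and in replicates 4 to 6 it was -0.74 (adjusted p = 0.0845), neither of them called. *Bid* lies on the minus strand of chr6:120891930-120916853 and shares 17.7% of its exon bases with its neighbour *Bcl2l13*, which had a mean of 885 normalized counts in control and 779 in CNV d3 (adjusted p = 0.541).

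*Bcl2l11* (chr2:128126038-128162547, plus strand) had 760, 1241, 234, 1131, 801 and 1587 normalized counts in control replicates 1 to 6, and between 543 and 932 in CNV d3 (median 713). Controls lay both above and below all CNV d3 samples, with a coefficient of variation of 48.8% in control and 19.8% in CNV d3. The log2FC of -0.17 (SE 0.36, 95% confidence interval -0.93 to 0.59, adjusted p = 0.754) was not called, and without control replicate 6 its direction turned (log2FC = 0.014).

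**Figure D3:**
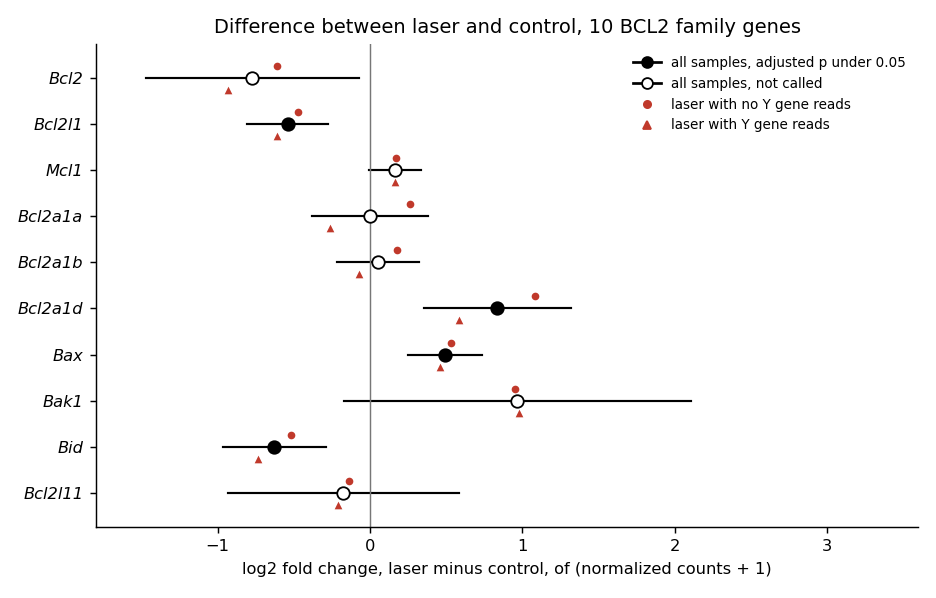
Log2 fold change (CNV d3 minus control, of normalized counts + 1) of each gene with its 95% confidence interval from limma over all samples (black; filled where adjusted p is under 0.05), and from CNV d3 replicates 1 to 3 (small red circles) or 4 to 6 (red triangles, Y gene reads) against the same controls. *Bax* and *Bcl2a1d* lie to the right of 0 and *Bcl2l1* and *Bid* to the left, and the 2 sets of CNV d3 samples fall on opposite sides of 0 for *Bcl2a1a* and *Bcl2a1b*.

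Ratios between members within a sample do not depend on the size factor, and gene length cancels in their difference between groups. They are given as a description with no test. The log2 ratio of *Bcl2l1* to *Bax* was 2.26 ± 0.15 across controls (2.11 to 2.51) and 1.23 ± 0.11 across CNV d3 samples (1.09 to 1.36; SD, n = 6 each). The groups were apart, as they had to be with *Bcl2l1* lower and *Bax* higher in every CNV d3 sample than in every control. The ratio of *Mcl1* to *Bax* was 3.72 ± 0.15 in control and 3.39 ± 0.17 in CNV d3 (SD, n = 6 each), with overlap. The ratio of *Bcl2* to *Bax* ran from -2.4 to 0.18 in control and from -2.57 to -1.85 in CNV d3, where control replicate 4 alone lay within the range of CNV d3. Between the pro-survival genes, the ratio of *Mcl1* to *Bcl2l1* was 1.46 ± 0.29 in control and 2.16 ± 0.17 in CNV d3 (SD, n = 6 each), with the groups apart.

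**Figure D4:**
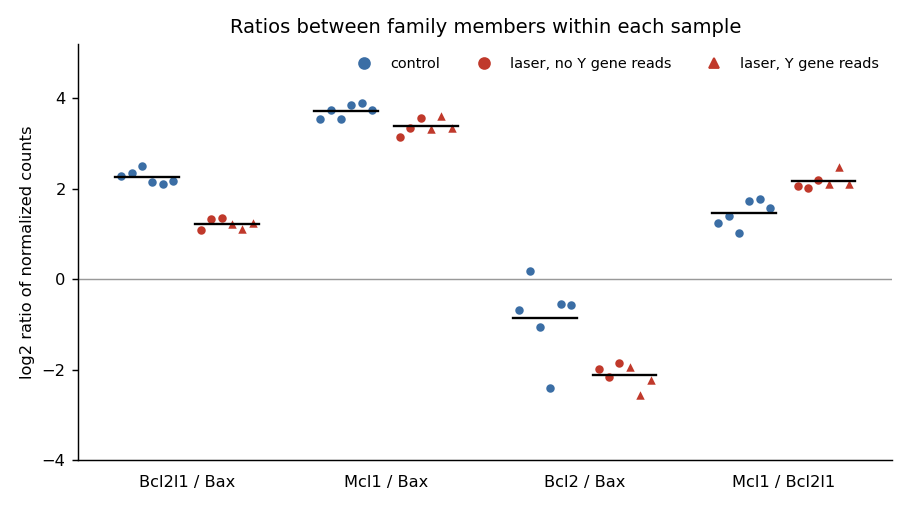
Log2 ratio of normalized counts between pairs of genes in each sample (control blue, CNV d3 red, triangles with Y gene reads; lines are group means). *Bcl2l1* over *Bax* is lower in every CNV d3 sample (1.09 to 1.36) than in every control (2.11 to 2.51), which follows from the separation of both genes. *Mcl1* over *Bcl2l1* is higher in every CNV d3 sample.

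To compare levels between genes, normalized counts were divided by length. Per 1000 of the 50-base windows found in no other gene, the order of levels in control was *Bcl2a1b* (5478), *Bcl2a1a* (3601), *Mcl1* (2569), *Bcl2a1d* (1542), *Bcl2l1* (684), *Bid* (625), *Bax* (428), *Bcl2l11* (118), *Bcl2* (47.9) and *Bak1* (14.0). Of neighbours in this order, the ranges over samples were apart between *Mcl1* and *Bcl2a1d*, *Bcl2a1d* and *Bcl2l1*, and *Bax* and *Bcl2l11*, and overlapped in the rest. In CNV d3 the level per 1000 windows of *Bax* (602) stood above those of *Bcl2l1* (466) and *Bid* (402) in all 6 samples, whereas its mean in control stood below both. *Bcl2a1d* (2774) came next to *Mcl1* (2876) with overlapping ranges. Per 1000 bases of all exons, with no allowance for shared windows, *Mcl1* ranked first in both groups (2564 in control and 2871 in CNV d3), so the place of the *Bcl2a1* copies above it depends on the length used.

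Other genes of the pathway were counted from fixed lists, beside the 8.29% of all genes called higher and 4.57% called lower. Most list genes had a mean of at least 100 normalized counts. Among the 9713 genes at that level, 15.3% were called higher and 10.8% lower, which are the closer shares for these lists. Of 16 other BCL2 family genes, 13 were in the table and none was called by limma (median log2FC 0.073), although 3 were higher at an unadjusted p under 0.05. By edgeR none was called either, and by DESeq2 *Bad* and *Bcl2a1c* were called higher. Those with the highest means were the mitophagy receptor *Bnip3l* (1459 and 1429 normalized counts in control and CNV d3) and the BH3-only gene *Bmf* (1092 and 922, adjusted p = 0.479). The related *Bcl2a1c* has 1 exon of 444 bases, with 10.4% of its 50-base windows shared with other genes, and is less like the 3 copies than they are like each other. Named after its values were seen, it had 29.2 ± 10.9 and 53.0 ± 4.11 normalized counts (SD, n = 6 each; adjusted p = 0.193). The p53 targets *Pmaip1* (NOXA) and *Bbc3* (PUMA), also named after their values were seen, had log2FC of -0.35 and -0.32 (adjusted p = 0.424 and 0.558).

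Of 14 genes of the apoptosome and the caspases, 2 rose by limma and by edgeR, and the median log2FC was 0.312. DESeq2 called 4 higher, adding *Aifm1* and *Vdac1*, while CNV d3 replicates 1 to 3 kept the call of *Vdac3* alone and replicates 4 to 6 that of *Apaf1* alone. None was called lower by limma, edgeR or DESeq2, and none was lower at an unadjusted p under 0.05 by limma. *Apaf1*, the scaffold of the apoptosome, went from 621 ± 159 to 1079 ± 265 normalized counts (log2FC = 0.80, adjusted p = 0.0167). *Vdac3*, a porin of the outer mitochondrial membrane, rose from 1137 ± 115 to 1656 ± 234 (log2FC = 0.54, adjusted p = 0.00784), with no overlap between groups. *Vdac2*, which retains BAK at the membrane, had 5215 and 5382 normalized counts (adjusted p = 0.716), and *Vdac1* had 1340 and 1939 (adjusted p = 0.0685 by limma and 0.0389 by DESeq2).

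Among the 13 inhibitor of apoptosis (IAP) genes and their antagonists, 2 rose and 1 fell (median log2FC 0.199). With 3 CNV d3 samples the only call kept was that of *Birc3*, in replicates 4 to 6. *Birc5* (survivin), a mitotic protein and therefore also a gene of dividing cells, ranged from 0 to 163 normalized counts in control and from 832 to 2256 in CNV d3 (adjusted p = 7e-04), and was the only DEG of the list. *Xaf1*, an interferon-inducible antagonist of XIAP, rose from 892 ± 603 to 1623 ± 320 (log2FC = 1.06, adjusted p = 0.0336, not called by edgeR), and *Birc3* (cIAP2), an NF-kappaB target, fell from 1666 ± 179 to 1215 ± 137 (log2FC = -0.46, adjusted p = 0.015). *Naip2* and *Birc6*, the genes with the highest means among those not called, had no call by limma (adjusted p = 0.604 and 0.865).

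Of 14 death receptor genes, 13 were in the table, 1 rose and 1 fell (median log2FC 0.19). At an unadjusted p under 0.05, 5 were higher and 1 lower by limma, 3 of them with an absolute log2FC above 1.5. With edgeR these counts were 2 and 1, and 0 had so large a log2FC. The ligand *Tnf* rose from 147 ± 93.7 to 346 ± 180.2 normalized counts (log2FC = 1.35, adjusted p = 0.0402), and its receptor *Tnfrsf1a* fell from 6103 ± 923 to 4824 ± 348 (log2FC = -0.33, adjusted p = 0.0439). By edgeR neither was called, nor was either in a set of 3 CNV d3 samples. *Casp8*, whose product cleaves BID, stood at 5172 ± 557 and 5197 ± 107 (adjusted p = 0.923), and the kinase *Ripk1* at 1796 and 1744 (adjusted p = 0.946).

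NF-kappaB genes, 9 in all, included 4 that fell (median log2FC -0.452). None was called higher by limma, edgeR or DESeq2, and none was higher at an unadjusted p under 0.05 by limma. The inhibitor *Nfkbia* fell from 4264 ± 422 to 2346 ± 483 normalized counts (log2FC = -0.88, adjusted p = 0.000356) and *Nfkbie* from 1177 ± 325 to 706.5 ± 67.9 (log2FC = -0.70, adjusted p = 0.0123). The subunits *Nfkb1* (log2FC = -0.66, adjusted p = 0.000703) and *Rela* (log2FC = -0.53, adjusted p = 0.0152) fell as well. *Rel* and *Tnfaip3* were not called by limma (log2FC = -0.45 and -0.34, adjusted p = 0.108 and 0.246), whereas DESeq2 called *Rel* lower (log2FC = -0.50, adjusted p = 0.0324). In each set of 3 CNV d3 samples, *Nfkb1* and *Nfkbia* were the 2 genes of the list called lower.

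Among 12 regulators of the members, 3 rose and 1 fell by limma (median log2FC 0.202). EdgeR called 4 higher, adding *Huwe1*, and DESeq2 called 5, adding *Huwe1* and *Usp9x*. In each set of 3 CNV d3 samples only *Akt1* was called higher and only *Trp53* lower. *Trp53*, whose protein activates *Bax* transcription, fell from 2336 ± 377 to 1382 ± 145 normalized counts (log2FC = -0.75, adjusted p = 0.000903), with no overlap between groups. *E2f1*, a cell cycle factor, rose from 73.7 ± 42.5 to 529 ± 126 (log2FC = 3.30, adjusted p = 0.00257), the kinase *Pim1* from 26.6 ± 24.2 to 131 ± 29.5 (log2FC = 2.75, adjusted p = 0.00576) and *Akt1*, which phosphorylates the BH3-only protein BAD, from 3862 ± 206 to 5037 ± 277 (log2FC = 0.38, adjusted p = 0.00268). *Jun* and *Mdm2* were not called (adjusted p = 0.419 and 0.786).

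Of 11 myeloid survival receptor genes, 4 rose and 3 fell (median log2FC -0.045). *Csf2rb* and *Trem2* were called in each set of 3 CNV d3 samples, and *Tgfbr2* in replicates 1 to 3. *Csf2rb* rose from 2613 ± 238 to 4872 ± 646 normalized counts (log2FC = 0.89, adjusted p = 5.9e-05) and its relative *Csf2rb2* from 1120 ± 226 to 1710 ± 148 (log2FC = 0.63, adjusted p = 0.00694). The first encodes the chain shared by the receptors for GM-CSF and interleukin-3, and the second a chain of the interleukin-3 receptor. The growth factor *Csf1* (log2FC = 1.43, adjusted p = 0.0154) and the kinase *Syk* (log2FC = 0.29, adjusted p = 0.0466, not called by edgeR) rose. *Tgfbr1* (log2FC = -0.85, adjusted p = 0.00182), *Trem2* (log2FC = -0.76, adjusted p = 0.000741) and *Tgfbr2* (log2FC = -0.45, adjusted p = 0.00246) fell. *Csf1r*, the receptor on which microglia depend, had 345828 ± 10697 and 303485 ± 44712 (log2FC = -0.20, adjusted p = 0.157), and *Tyrobp*, the signalling adaptor of TREM2, had 26806 and 23344 (adjusted p = 0.27).

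**Figure D5:**
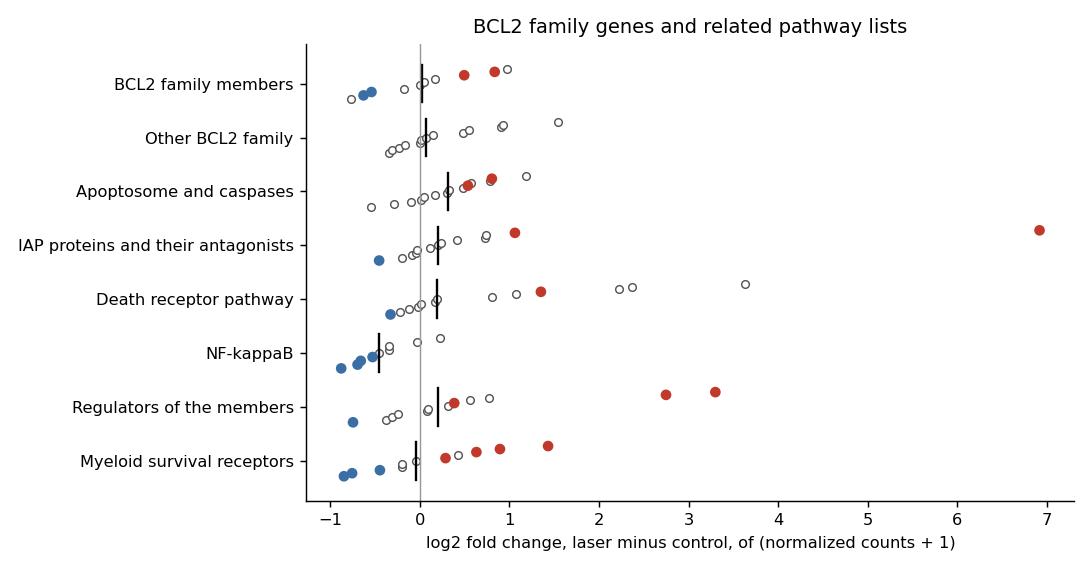
Log2 fold change (CNV d3 minus control, of normalized counts + 1) of each gene in the BCL2 family and in 7 related lists; filled points have an adjusted p under 0.05 (red higher, blue lower), open points do not, and black lines are list medians. The NF-kappaB list holds 4 filled points, all to the left of 0, and the other BCL2 family genes hold none.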

How the data were processed

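The members and all lists were chosen with earlier results of these data known. The labels gave 19 sample entries for 12 samples, 7 of them in 2 parts that the authors merged. Those in 2 parts were every control sample and CNV d3 replicate 4, while the other CNV d3 samples had a single entry each. The methods of the study state that 2 files of each sample, a file per flow cell, were merged. The labels do not call the parts flow cells, and most CNV d3 samples had no second part. Having 2 parts thus went almost wholly with the groups, and what it stands for cannot be told apart from them. The authors mapped reads with STAR 2.7.2b to GRCm38.p6 with Gencode M25, counted them per gene with featureCounts 1.6.4 at default settings and removed genes without reads. The deposited signal is the read count divided by the DESeq2 1.22.2 size factor of the sample. The columns of the authors' comparison (group means, log2 fold change, adjusted p) were not used. Every value was a whole multiple of the sample's smallest value (within 0.001), which gave back the reads.

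Since the values are not counts, limma 3.58.1 in R 4.3.3 with a mean-variance trend was fitted to log2(value + 1) over 27299 genes, 6 samples against 6, without covariate or filter. Fold changes are on this log2(value + 1) scale and, for low genes, differ from the ratio of means in either direction. edgeR 4.0.16 and DESeq2 1.42.0 on recovered reads, other pseudocounts (0.5 and 10), scalings, a filter, thinning, the replicate block and left-out samples were alternatives, and the Y gene splits (at least 100 summed normalized counts) were added after the data were seen. The *Bcl2a1* sum and ratio were tested over every labelling of the samples (exact permutation, two-sided). The tools were tested on simulated data with 200 genes changed by a log2FC of 2. That is larger than any estimate for the members, so the simulation does not show how well changes of their size are found. Intervals do not cover PCR duplication, as reads carried no molecular identifiers. The genes named are all members and, from each list, up to 4 called genes with the largest increase, up to 4 with the largest decrease and 2 others with the highest means. *Bad*, *Aifm1*, *Huwe1* and *Usp9x* were named because edgeR or DESeq2 called them, which was after their values were seen. Further genes are marked as chosen after their values were seen, other than the overlapping *Ggnbp1* and *Bcl2l13*, and markers. Gene positions came from Gencode M21 (GRCm38) and promoters from RefSeq. Amino acid sequences were not used here.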

Additional observations from a re-analysis of the deposited data

Results flagged for a closer look

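*Bcl2a1d* in control replicate 5 stood at 152.6 normalized counts, apart from the other 5 controls at 253 to 306; its gap to the nearest was 0.656 of the range of the group, above Dixon's 95% critical value for 6 samples. Of 22 groups of samples examined, over the 10 genes and the *Bcl2a1* sum, it was the only such case, and chance gives about 1 in 20.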

How the results depend on the processing

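*Bcl2l1* (log2FC from -0.60 to -0.46) and *Bax* (0.46 to 0.53) were called in all 22 other settings and left-out samples tried besides the Y gene splits, *Bid* in 21 and *Bcl2a1d* in 19. Leaving out 1 sample gave 1 to 2 members called higher, log2FC of -0.075 to 0.11 for *Bcl2a1a*, -0.54 to 0.014 for *Bcl2l11*, and no other change of direction. The correlation of same-numbered samples over 13614 genes lay between -0.012 and 0.046, so the numbers were not taken to pair samples. Under the replicate block 1 member was called lower (*Bid* at adjusted p = 0.0528), with 1885 genes higher and 975 lower. DESeq2 called 2160 genes lower, against 1247 by limma. With CNV d3 samples without Y gene reads, 1022 genes were called higher and 540 lower, with 0 members lower by limma (2 at an unadjusted p under 0.05) and a *Bcl2a1* sum of 0.36. With those carrying Y gene reads, 987 genes were called higher and 575 lower, with 1 member higher and 0 lower by limma (2 lower at an unadjusted p under 0.05), and log2FC of -0.26 for *Bcl2a1a*, -0.075 for *Bcl2a1b* and -0.043 for the sum. Both use fewer samples; the cause of these shifts was not tested. Thinning every sample to the shallowest left *Bak1* at 0.97 (adjusted p = 0.342), and without control replicate 5 it was 0.64. Over all genes the median log2FC ran from -0.012 (DESeq2) to 0.23 (pseudocount of 0.5).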
